A study of Rattus norvegicus with 24 samples.

Results

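Expression of 9 genes of the excitatory postsynaptic density was followed in 2 stress-related nuclei of the rat brain after liver surgery and acupuncture. The genes were taken by name from a table of 35032 genes: the scaffolds Shank1, Shank2, Shank3, Dlg4, Dlgap1 and Homer1, the kinase subunits Camk2a and Camk2b, and the synapse-to-nucleus messenger Nsmf. Strand-specific mRNA libraries came from male Sprague-Dawley rats, bought at 7 weeks of age. The nuclei were the hypothalamic paraventricular nucleus (PVN) and the central amygdala (CEA). Each nucleus had 4 groups of 3 libraries. Normal controls (NC) had no operation. The hepatectomy group (HT) lost about 20% of the left liver lobe. The HT+EA group had the same operation with electroacupuncture at the Zusanli and Sanyinjiao points 24 h before and right after it, and the SEA group had the operation and the needles without current. All rats, controls included, were held in the restraint device for the same time, and tissue was taken 24 h after the last treatment. The methods count only as many rats as 1 nucleus has libraries, so 3 a group for 6 libraries, yet they also state that brain samples were taken from different animals of 1 batch. Whether the nuclei share rats, and whether the same replicate number marks a rat, is not settled by the sources used here, and the tests between the nuclei treat the libraries as separate samples. The nuclei were dissected by atlas, so each library holds all cell types of its piece, and in such tissue fewer cells of a type and less RNA per cell cannot be told apart.

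The postsynaptic density is the protein layer under the membrane of an excitatory synapse. Dlg4, also called PSD95, holds glutamate receptors at the membrane, Dlgap1 binds Dlg4 from below, the Shank proteins bind Dlgap1, and Homer1 ties Shank to metabotropic glutamate receptors. Camk2a and Camk2b form the calmodulin-dependent kinase II that is activated by calcium entry and is needed for lasting changes in synaptic strength, and Nsmf, known as Jacob, can carry a signal from NMDA receptors to the nucleus.

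Total counts ran from 13152772 to 18607032 per library, and every member passed the filter on low counts in each of the 16 comparisons. The least covered member was Shank2, with 128 to 741 counts per library. Levels are given in counts per 1000000 (CPM), scaled between libraries by the TMM method. Hypothalamic identity held in the PVN, where the summed CPM of Avp, Oxt, Trh, Crh, Sim1 and Otp was 417 to 1333, against 34.8 to 181 in the CEA. The CEA libraries were more mixed. The summed CPM of 3 central amygdala markers (Prkcd, Cyp26b1 and Calcrl) was 61.3 to 592 in the CEA and 34.2 to 186 in the PVN. In CEA NC replicate 1, CEA HT replicate 1, CEA HT+EA replicate 1 and CEA SEA replicate 2 it was below the highest PVN library. Markers of striatal projection neurons, 8 genes that include Drd1, Drd2 and Ppp1r1b, summed to 2013 to 6141 CPM in the CEA and 166 to 278 in the PVN, and the highest CEA libraries were HT replicate 1, SEA replicate 2 and NC replicate 1. Choroid plexus markers reached 1028 CPM in CEA NC replicate 2, 363 in CEA HT+EA replicate 1 and 1747 in CEA SEA replicate 2, and were 5.34 to 21.3 in the other libraries. Oligodendrocyte markers summed to 9784 to 16422 CPM in the PVN and 25886 to 42998 CPM in the CEA. The summed CPM of 10 general neuron markers, 4936 to 5682 in PVN libraries and 3909 to 6018 in CEA libraries, overlapped between the nuclei.

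All 9 members are protein-coding genes, and the table gives these positions, on a build it does not name. Shank1 lies at chr1:100297152-100344377, plus strand, Shank2 at chr1:217151166-217592763, plus strand, and Shank3 at chr7:130474279-130534679, plus strand. Dlg4 lies at chr10:56627411-56653599, plus strand, Dlgap1 at chr9:118586179-119158196, plus strand, and Homer1 at chr2:22909569-23009678, plus strand. Camk2a lies at chr18:56193978-56295869, plus strand, Camk2b at chr14:86208901-86297652, minus strand, and Nsmf at chr3:2262253-2270995, plus strand. The counts cover whole genes, so the short and long forms of Homer1, which differ in function, were not separated.

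RefSeq promoter windows on the GRCr8 build were found for 7 of the 9 members, and the 250 bases before the start of 3 of them are shown. Camk2b varied least over the PVN libraries. Nsmf and Homer1 varied with the other members, as did Shank3, Dlgap1 and Camk2a, whose windows are not printed. GC boxes (GGGCGG), cyclic AMP response element half-sites (TGACG) and TATAAA were searched on both strands, and the first and second are in capitals. The windows lie at chr14:85147945-85148194 on the minus strand (Camk2b), chr3:28259797-28260046 on the plus strand (Nsmf) and chr2:26278762-26279011 on the plus strand (Homer1).
Camk2b: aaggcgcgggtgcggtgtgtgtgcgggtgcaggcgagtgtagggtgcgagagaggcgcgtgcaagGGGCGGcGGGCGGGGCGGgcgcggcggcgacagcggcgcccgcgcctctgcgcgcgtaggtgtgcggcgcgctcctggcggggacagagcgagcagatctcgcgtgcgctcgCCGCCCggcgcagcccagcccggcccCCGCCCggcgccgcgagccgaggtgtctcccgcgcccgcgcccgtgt
Nsmf: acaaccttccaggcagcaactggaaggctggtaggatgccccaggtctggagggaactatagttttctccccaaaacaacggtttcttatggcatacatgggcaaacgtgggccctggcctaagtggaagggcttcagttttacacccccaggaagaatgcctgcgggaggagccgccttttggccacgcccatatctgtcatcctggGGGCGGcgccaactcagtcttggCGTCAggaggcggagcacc
Homer1: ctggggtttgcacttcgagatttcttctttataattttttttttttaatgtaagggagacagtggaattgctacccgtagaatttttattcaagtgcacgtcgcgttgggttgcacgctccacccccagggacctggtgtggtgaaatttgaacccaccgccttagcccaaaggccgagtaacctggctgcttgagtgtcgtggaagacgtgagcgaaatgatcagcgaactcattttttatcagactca
The Camk2b window held 5 GC boxes, of which a pair overlaps in a run of the same letters, and its GC content was 80.4%. That of Nsmf held 1 GC box and 1 half-site at 58% GC, and that of Homer1 held neither at 46.4% GC, with 1 TATAAA on the opposite strand, so that it reads TTTATA as printed. The other 4 members had 5 windows, 2 of them for Dlgap1. Of these, 0 held a GC box, and the Dlg4 window had 69.2% GC. Camk2a held 2 half-sites, and 1 Dlgap1 window held 2 TATAAA. The full response element (TGACGTCA) and an EGR site (GCGTGGGCG) were in 0 of the 8 windows, beside 1.70% and 0.514% of all windows. Among 27457 RefSeq windows of the same length, 32.4% held a GC box, 19.0% the half-site and 13.1% TATAAA, and the median GC content was 52%. These matches describe letters only.

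Per kilobase of listed gene length, Dlg4 led in the PVN at 157 ± 20.4 CPM per kb (SD, n = 12 libraries), followed by Camk2b at 141 ± 3.54, and their ranges overlapped. Nsmf at 98.6 ± 20.8 and Camk2a at 87.4 ± 21.0 came next, also with overlapping ranges, and Nsmf lay wholly under Camk2b. Shank1 at 44.5 ± 9.47, Shank3 at 29.3 ± 8.48 and Dlgap1 at 23.3 ± 2.86 each overlapped the gene above. Homer1 at 7.01 ± 1.53 and Shank2 at 2.02 ± 0.670 stood apart below. In the CEA the order was Camk2a at 286 ± 77.8 CPM per kb, Dlg4 at 276 ± 58.1, Camk2b at 218 ± 26.1, Nsmf at 202 ± 82.9, Shank3 at 84.3 ± 19.0, Shank1 at 48.3 ± 13.7, Dlgap1 at 27.7 ± 3.73 and Homer1 at 27.5 ± 9.68, each overlapping its neighbour. Only Shank2, at 2.65 ± 0.892 CPM per kb, was apart from the gene above it. Thus Camk2a, under 3 other members in the PVN, had the highest mean over the CEA libraries, and Shank3 and Shank1 changed places. That lead over Dlg4 did not hold in each group. Dlg4 and Camk2a were at 270.2 and 266.7 CPM per kb in CEA SEA and at 295.6 and 296.1 in CEA NC. These levels rest on the length listed for each gene, which for Camk2a is only 1514 bases.

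**Figure D1:**
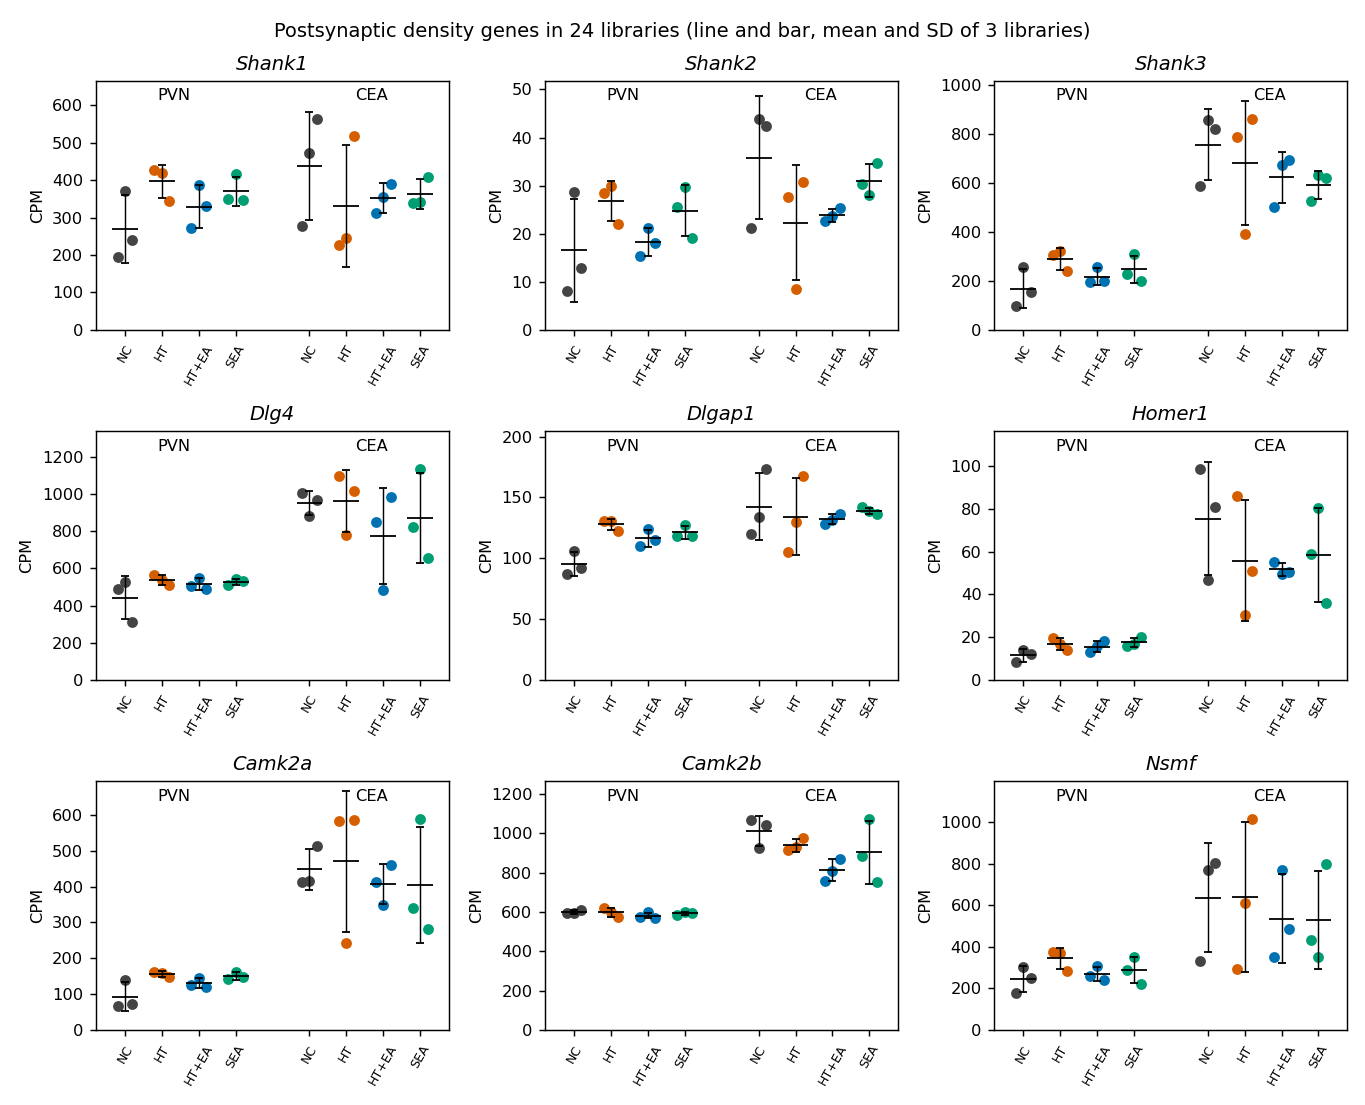
CPM of each of the 9 genes (vertical axis, from 0) in the 4 groups of the PVN (left) and of the CEA (right). Points are libraries in the order of their replicate number, and the line and bar are the mean and SD of 3 libraries. Homer1, Camk2a, Shank3 and Camk2b are higher in every CEA library than in every PVN library, and in the PVN NC replicates 1 and 3 are low for most genes while Camk2b stays at 572 to 622 CPM.

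The first question was whether the nuclei differ in these genes before any operation. In NC rats all 9 members had a higher mean in the CEA than in the PVN, and 7 of them passed the test (edgeR quasi-likelihood test, Benjamini-Hochberg adjusted p under 0.05), all higher. Of 16748 genes tested, 26.4% passed in either direction and 12.7% were higher in the CEA. The median log2 fold change of the members was 1.11, against -0.01 over all genes. The same 7 members did not overlap between the groups, beside 21.5% of all genes that were higher without overlap.

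Among the scaffolds, Homer1 differed most. Its level was 8.16, 14.2 and 12.2 CPM in the PVN NC libraries and 98.6, 46.6 and 80.8 CPM in the CEA NC libraries. The groups did not overlap, and the log2 fold change was 2.70 ± 0.32 (SE), a 6.52-fold difference (edgeR adjusted p = 0.002). Shank3, the Shank most abundant in striatum and the one disrupted in Phelan-McDermid syndrome, measured 96.6, 255 and 152 CPM in the PVN and 587, 857 and 820.4 CPM in the CEA. The groups were again apart, the lowest CEA library being above the highest PVN library, with a log2 fold change of 2.17 ± 0.35 (edgeR adjusted p = 0.005). Dlg4 was at 489.7, 529 and 312 CPM in the PVN and 1007, 883 and 970.1 CPM in the CEA. It was higher in the CEA by 1.10 ± 0.20 on the log2 scale (edgeR adjusted p = 0.007), and PVN replicate 3 was the low library of its group. Dlgap1, at 87.5, 106 and 91.9 CPM in the PVN and 120.2, 134 and 173 CPM in the CEA, had the smallest log2 fold change, 0.58 ± 0.16 (edgeR adjusted p = 0.033).

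Shank1 and Shank2 did not pass. Shank1 was at 195, 370.4 and 241 CPM in the PVN and 278, 471 and 563 CPM in the CEA. PVN replicate 2 and CEA replicate 1 overlapped, and its log2 fold change was 0.70 ± 0.31 (edgeR adjusted p = 0.136). Shank2 had 128, 522 and 233 counts in the PVN libraries and 352, 741 and 640 in the CEA libraries, or 8.10, 28.6 and 12.9 and 21.1, 43.9 and 42.4 CPM. The same 2 libraries overlapped, and the log2 fold change was 1.11 ± 0.47 (edgeR adjusted p = 0.124). Libraries with the same number deviated together in this comparison (r from 0.13 to 0.29 for the 3 pairs), and with the replicate number as a block all 9 members passed, beside 27.5% of all genes. Under the block the edgeR adjusted p was 0.047 for Shank1 and 0.018 for Shank2, and over all alternatives it ran from 0.043 to 0.36 for Shank1 and from 0.017 to 0.29 for Shank2.

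Both kinase subunits were higher in the CEA. Camk2a was at 67.5, 139 and 73.2 CPM in the PVN and 414, 416 and 514 CPM in the CEA. The log2 fold change was 2.26 ± 0.29, or 4.80-fold (edgeR adjusted p = 0.002). Camk2b, which binds actin and is found in most neurons, was at 594, 594 and 612 CPM in the PVN and 1069, 927 and 1041 CPM in the CEA, a difference of 0.75 ± 0.10 on the log2 scale (edgeR adjusted p = 0.002). Its difference was smaller than that of Camk2a but had the smallest standard error of the 9 members. Nsmf was at 178, 304 and 249 CPM in the PVN and 333, 769.9 and 804 CPM in the CEA. CEA replicate 1 lay just above the highest PVN library, and the log2 fold change was 1.38 ± 0.35 (edgeR adjusted p = 0.025). Without PVN NC replicate 2 all 9 members passed, beside 36.1% of all genes, and without CEA NC replicate 1, 8 did, beside 23.1%. Without CEA NC replicate 2, CEA NC replicate 3, PVN NC replicate 1 or PVN NC replicate 3, 5 passed, the losses being Dlgap1 and Nsmf, and the share of all genes fell too, to 16.3%, 14.3%, 14.7% and 14.9% in that order.

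The comparison was repeated in the 18 libraries of operated rats, which share no library with the first. Again 7 of 9 members were higher in the CEA and 0 lower, beside 52.8% of 17539 genes that passed in either direction and 27.2% that were higher. The members that passed were the same 7, and their median log2 fold change with the 2 others was 0.75, against 0.02 over all genes. Homer1 spanned 12.96 to 20.1 CPM with a median of 16.6 in the PVN and 30.3 to 86.1 CPM with a median of 50.96 in the CEA (n = 9 libraries each). Camk2a spanned 120.2 to 162 CPM with a median of 147 in the PVN and 243 to 588 CPM with a median of 413 in the CEA. Neither gene overlapped between the nuclei, and the log2 fold changes were 1.76 ± 0.17 for Homer1 and 1.59 ± 0.15 for Camk2a (edgeR adjusted p = 7.16e-08 and 9.26e-08).

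Shank3 and Camk2b were the other members without overlap, beside 8.39% of all genes that were higher without overlap. Shank3 spanned 196 to 321 CPM with a median of 239.7 in the PVN and 392 to 859 CPM with a median of 629 in the CEA, with a log2 fold change of 1.37 ± 0.14 (edgeR adjusted p = 1.15e-07). Camk2b spanned 572 to 622 CPM with a median of 594 and 754 to 1072 CPM with a median of 886, with 0.61 ± 0.06 (edgeR adjusted p = 8.01e-08). Nsmf overlapped, at 223 to 376 CPM with a median of 289 in the PVN and 292 to 1013 CPM with a median of 487 in the CEA, and its log2 fold change was 0.96 ± 0.21 (edgeR adjusted p = 8.27e-04). The log2 fold change was 0.75 ± 0.12 for Dlg4, whose lowest CEA library, HT+EA replicate 2, was under every operated PVN library. For Dlgap1 it was 0.18 ± 0.07 (edgeR adjusted p = 0.028), and it did not pass without PVN HT+EA replicate 1, PVN SEA replicate 1, PVN SEA replicate 3 or CEA HT replicate 3, at 0.13 to 0.17. Shank2 (0.18 ± 0.18, edgeR adjusted p = 0.417) and Shank1 (-0.03 ± 0.13, edgeR adjusted p = 0.854) did not pass. For Shank1 the operated libraries spanned 272 to 427 CPM with a median of 349.98 in the PVN and 226 to 519 CPM with a median of 341 in the CEA. Shank2 passed without CEA HT replicate 2, its lowest CEA library, with a log2 fold change of 0.32 (edgeR adjusted p = 0.00771, range over the alternatives 0.008 to 0.599).

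The region differences were also fitted without doubtful CEA libraries, a choice made after the data were seen. Without CEA HT replicate 1 and CEA SEA replicate 2, the highest in striatal markers, the same 7 members passed, beside 50.9% of all genes, and the log2 fold change was 1.54 ± 0.13 for Homer1, 1.43 ± 0.14 for Camk2a and 1.14 ± 0.17 for Nsmf. Without the 3 operated CEA libraries whose central amygdala markers were under the highest PVN library, it was 1.51 ± 0.14 for Homer1, 1.41 ± 0.15 for Camk2a and 1.23 ± 0.15 for Nsmf, and again the same 7 passed, beside 50.2% of all genes. Striatal and oligodendrocyte markers were higher in every CEA library than in every PVN library, and their part in the differences between the nuclei was not tested.

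**Figure D2:**
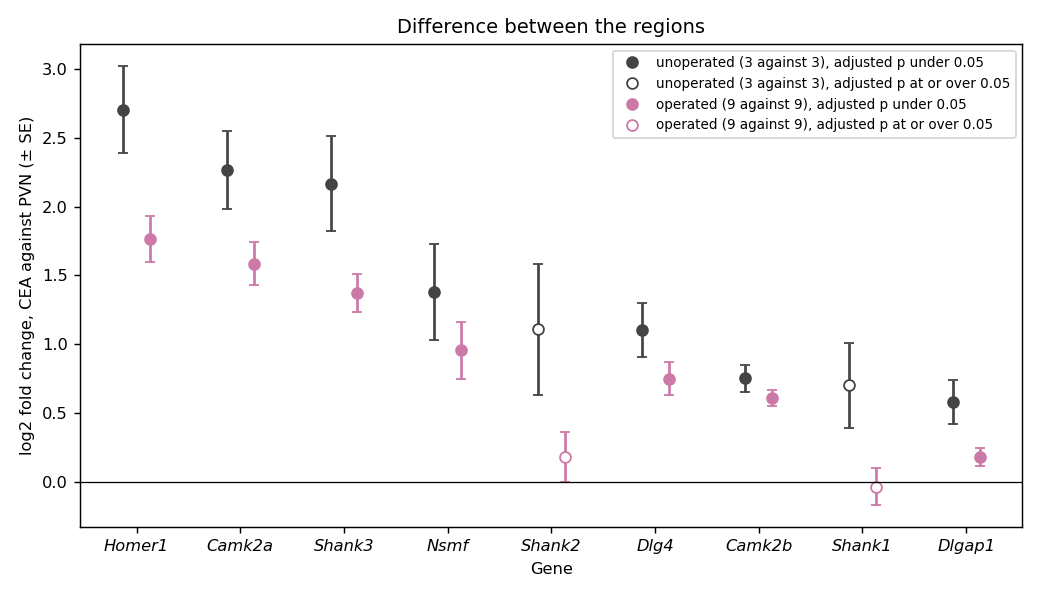
Log2 fold change of the CEA against the PVN with its SE (vertical axis) for the 9 genes, in unoperated rats (grey, 3 against 3 libraries) and operated rats (pink, 9 against 9). Filled points had an edgeR adjusted p under 0.05. Homer1, Camk2a and Shank3 have the largest values in both sets, and in operated rats Shank2 and Dlgap1 are both at 0.18 and Shank1 is at -0.03.

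Within families the make-up differed between the nuclei. In length-scaled levels, Shank3 made up 38.2% ± 2.74 of the 3 Shank genes in PVN libraries and 62.4% ± 4.88 in CEA libraries (SD, n = 12 each), while Shank1 made up 59.2% ± 2.97 and 35.6% ± 4.84. The Shank3 share was 31.9, 38.9 and 37.3% in the PVN NC libraries, against 66.2, 62.5 and 57.4% in the CEA NC libraries. The groups did not overlap, at an exact two-sided permutation p of 0.1, the smallest that 3 against 3 allows. In operated rats the PVN share was 35.3 to 41.6% and the CEA share 58.3 to 75.7% (n = 9 each, exact permutation p = 4.11e-05, the smallest possible, adjusted p = 0.000165 over 4 share tests chosen after the levels were seen). CEA HT replicate 1, the highest library in striatal markers, had the highest Shank3 share. Camk2a made up 37.8% ± 6.46 of Camk2a plus Camk2b in the PVN and 56.0% ± 6.15 in the CEA. In the PVN NC libraries its share was 24.03, 39.4 and 24.97%, so replicate 2 was near the operated PVN libraries at 36.9 to 42.8%. In operated CEA libraries it was 42.1 to 64.0%, and the low value, CEA HT replicate 2, overlapped the PVN (exact permutation p = 0.000123, adjusted p = 0.000247). Shares within a family rest on the listed gene lengths.

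**Figure D3:**
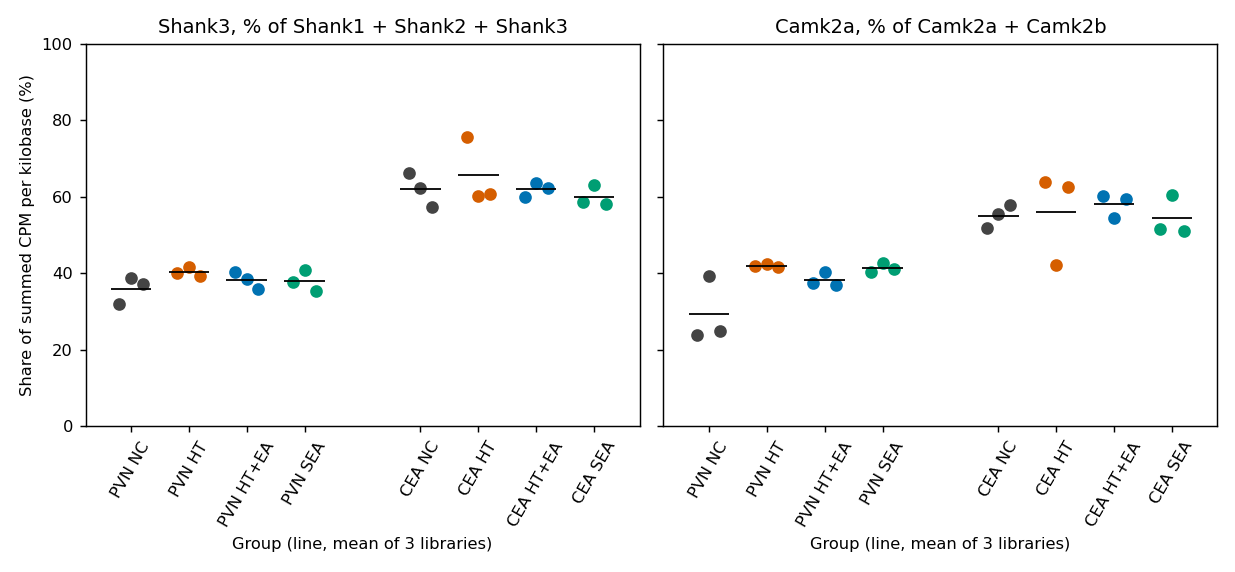
Share of Shank3 among the Shank genes (left) and of Camk2a among Camk2a and Camk2b (right), in percent of summed CPM per kilobase, by library (points) with the mean of 3 libraries (line). The Shank3 share is 31.9 to 41.6% in all PVN libraries and 57.4 to 75.7% in all CEA libraries.

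Other genes of the postsynaptic density were compared in the same fits. Of 22 further scaffolds and scaffold-bound regulators, 18 were higher in the CEA in NC rats and 17 in operated rats, and 0 were lower. Over all genes 12.7% and 27.2% were higher, and 13.7% and 25.6% lower. The median log2 fold change of the list was 1.33 in NC and 0.87 in operated rats, against -0.01 and 0.02 over all genes. Baiap2, an actin regulator bound to Shank and Dlg4, had 2.72 ± 0.23 in NC and 2.62 ± 0.16 in operated rats (edgeR adjusted p = 6.54e-04 and 3.13e-10). Dlgap3, a striatum-enriched relative of Dlgap1, had 2.26 ± 0.18 and 1.85 ± 0.12, and Agap2, a GTPase-activating protein, had 2.22 ± 0.12 and 2.16 ± 0.15. The values of Dlgap3 were larger than those of Dlgap1, a difference that was not tested.

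Of 17 other kinases, phosphatases and calmodulin regulators, 11 were higher and 1 lower in the CEA in NC rats, and 12 higher and 4 lower in operated rats, beside the same shares of all genes, 12.7% higher and 13.7% lower in NC and 27.2% higher and 25.6% lower in operated rats. The 4 lower genes of 17 are thus near the share among all genes. The list's medians were 1.30 and 0.45, against -0.01 and 0.02 over all genes. Camk2n1, an inhibitor of the kinase II, had a log2 fold change of 2.01 ± 0.12 in NC and 1.94 ± 0.11 in operated rats. Camk4, a nuclear calmodulin kinase, had 2.77 ± 0.25 and 2.16 ± 0.14. Nrgn, a calmodulin-binding protein of spines, had 3.18 ± 0.25 and 3.44 ± 0.23 (edgeR adjusted p = 5.28e-04 and 9.94e-10). The 4 genes that were lower in operated rats, named after their values were seen, included the remaining kinase II subunits, Camk2g (-1.13 ± 0.16) and Camk2d (-0.54 ± 0.13), with Camk1 (-0.53 ± 0.07) and the inhibitor Camk2n2 (-0.59 ± 0.23). In NC rats Camk2g had 0.07 ± 0.43 and did not pass (edgeR adjusted p = 0.924).

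The 3 other synapse-to-nucleus messengers were higher in the CEA in both sets, where 12.7% and 27.2% of all genes were higher, with 1.13 ± 0.11 for Prr7, 1.14 ± 0.13 for Cabp1, which binds Nsmf, and 0.53 ± 0.13 for Crtc1 in operated rats. Of 5 measured genes of the inhibitory postsynapse, 2 were higher in NC rats and 0 lower, while in operated rats 3 were higher and 2 lower, where 27.2% and 25.6% of all genes were. In operated rats Nlgn2, the adhesion protein of inhibitory synapses, was lower at -0.41 ± 0.05 and Shisa7 was higher at 1.15 ± 0.18. The lists were drawn up with earlier results of these data known, so their counts are descriptions.

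Whether hepatectomy changed these genes was asked next, in the PVN. None of the 9 members passed in HT against NC (0.012% of 16727 genes did), and 0 passed with adjusted DESeq2 p-values. At an unadjusted edgeR p under 0.05, 6 members were higher and 0 lower, beside 5.69% of all genes that were higher. The member median was 0.54 on the log2 scale, against -0.01 over all genes.

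The outcome turned on 1 NC library. For Shank3 the NC libraries were at 96.6, 255 and 152 CPM, against 307, 321 and 239.7 in HT, 196, 257 and 197 in HT+EA and 228, 309 and 201 in SEA. For Camk2a they were at 67.5, 139 and 73.2 CPM, against 162, 158 and 147 in HT, 124, 146 and 120.2 in HT+EA and 142, 162 and 149 in SEA. NC replicates 1 and 3 lay under all 9 operated PVN libraries for both genes, while NC replicate 2 lay among them. Shank2 showed the same in NC at 8.10, 28.6 and 12.9 CPM, against 28.4, 30.02 and 22.1 in HT, 15.4, 21.2 and 17.997 in HT+EA and 25.5, 29.6 and 19.1 in SEA. Camk2b was level, at 594, 594 and 612 CPM in NC and 622, 598 and 574 in HT.

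In the full comparison the log2 fold change of HT against NC was 0.78 ± 0.32 for Shank3, 0.74 ± 0.26 for Camk2a, 0.69 ± 0.41 for Shank2, 0.56 ± 0.22 for Shank1, 0.54 ± 0.23 for Homer1, 0.49 ± 0.20 for Nsmf and 0.42 ± 0.10 for Dlgap1. It was 0.28 ± 0.18 for Dlg4 and -0.01 ± 0.07 for Camk2b, and the lowest edgeR adjusted p of the 9 was 0.418. Dlgap1 had the lowest unadjusted edgeR p, 0.003. Its NC libraries at 87.5, 106 and 91.9 CPM did not overlap the HT libraries at 131, 130.5 and 122 CPM, and of the other members only Camk2a did not overlap, beside 8.88% of all genes that were higher without overlap.

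Without PVN NC replicate 2, 6 members passed, all higher in HT: Shank1, Shank2, Shank3, Dlgap1, Camk2a and Nsmf. In that fit 20.2% of 16939 genes passed and 12.6% were higher. The log2 fold change became 1.34 ± 0.22 for Shank2, 1.21 ± 0.20 for Shank3, 1.14 ± 0.08 for Camk2a and 0.68 ± 0.17 for Nsmf, and it stayed at -0.02 ± 0.06 for Camk2b. The edgeR adjusted p of Camk2a was then 3.44e-04, and over all alternatives it ran from 3.44e-04 to 0.801. Leaving out any other library of this comparison gave 0. The same library decided the comparisons of HT+EA and SEA with NC, where 0 members passed with all libraries by either tool (0.0119% and 0.0% of all genes) and 5 and 6 passed without it (19.0% and 24.3% of all genes). With all libraries and an unadjusted edgeR p under 0.05, 1 member (Dlgap1) was higher in HT+EA against NC and 3 (Homer1, Camk2a and Dlgap1) in SEA against NC, beside 4.71% and 6.26% of all genes.

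Marker sums of other cell types also differed between PVN libraries. The summed CPM of Prkcd, Cyp26b1 and Calcrl was 34.2, 123 and 83.8 in NC, 174, 175 and 112 in HT, 112, 145 and 107 in HT+EA and 125, 186 and 78.5 in SEA. The sum of 4 thalamus markers was 61.95, 126 and 117 in NC and 165, 180.2 and 103 in HT. NC replicate 1 was the lowest PVN library for both, and for the thalamus markers NC replicates 2 and 3 lay above HT replicate 3. The 6 neuroendocrine hypothalamus markers summed to 1060.00, 1003 and 1333 CPM in NC, 909, 954 and 417 in HT, 1122, 1039 and 896 in HT+EA and 939, 1174 and 903 in SEA. HT replicate 3 had the lowest sum of the 12 PVN libraries, and all 3 NC libraries lay above all 3 HT libraries. In HT against NC 3 of these 6 genes were lower and 0 higher at an unadjusted edgeR p under 0.05, beside 5.35% of all genes that were lower, with a median log2 fold change of -0.57. In HT+EA against HT 3 were higher and 0 lower, beside 2.1% of all genes that were higher, with a median of 0.44. In SEA against HT 2 were higher and 0 lower, beside 4.38% of all genes in either direction, with a median of 0.36. None of the 6 passed in any of these comparisons. General neuron markers summed to 4936, 5265 and 5549.5 CPM in NC and 5646, 5597 and 5430.3 in HT. Their part in the results of the PVN comparisons was not tested.

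Electroacupuncture was compared with hepatectomy alone. In the PVN none of the 9 members passed in HT+EA against HT (0.0961% of 16641 genes did), and 0 passed with adjusted DESeq2 p-values. All 9 log2 fold changes were below 0, with a median of -0.26 against 0.00057 over all genes, and 4 members had an unadjusted edgeR p under 0.05, all lower, beside 3.57% of all genes. These were Shank2 (-0.56 ± 0.15), Camk2a (-0.26 ± 0.08), Shank3 (-0.41 ± 0.13) and Nsmf (-0.35 ± 0.12), with edgeR adjusted p-values of 0.461, 0.612, 0.64 and 0.714. For Shank2 and Camk2a the groups did not overlap, as the values above show, beside 5.85% of all genes that were lower without overlap. Nsmf was at 376, 372 and 284 CPM in HT and 261, 306 and 240.2 CPM in HT+EA, where HT replicate 3 lay among the HT+EA libraries. The study's own rule, DESeq2 with an unadjusted p under 0.05, took 6 members as higher in HT against NC and 5 as lower in HT+EA against HT. Both comparisons use the same HT libraries. Under that rule 7.22% of all genes were higher in the one and 3.02% lower in the other.

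The needles without current were also set against hepatectomy alone. The 4 genes named above were picked by their HT+EA values against the same HT libraries, so smaller values elsewhere follow in part from that choice. In SEA against HT the log2 fold changes were -0.11 ± 0.17 for Shank2, -0.04 ± 0.06 for Camk2a, -0.23 ± 0.16 for Shank3 and -0.26 ± 0.16 for Nsmf, and 0 members passed with edgeR or DESeq2 (0.0% of all genes in edgeR) or had an unadjusted edgeR p under 0.05 (4.38% of all genes did). Of the 9 members, 8 were below 0, with a median log2 fold change of -0.07 against 0.00058 over all genes. As most members ran together over the PVN libraries, their directions are not separate observations. HT+EA was then set against SEA, where 0 members passed with either tool (0.0% of all genes in edgeR) and 9 of 9 log2 fold changes were below 0. The unadjusted edgeR p was under 0.05 for Shank2 (-0.44 ± 0.17) and Camk2a (-0.21 ± 0.08), whose groups overlapped, and above it for the other 7, which include Shank3 (-0.18 ± 0.16) and Nsmf (-0.09 ± 0.15), beside 3.0% of all genes that were lower at that threshold.

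**Figure D4:**
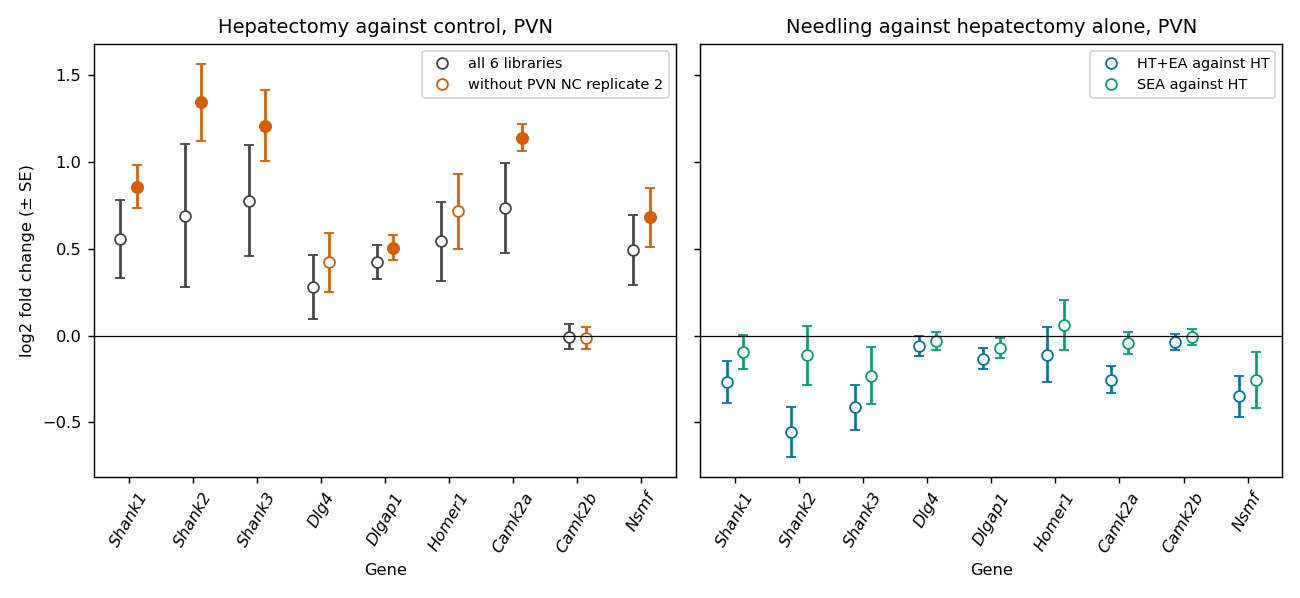
Log2 fold changes with SE (vertical axis) in the PVN. Left, HT against NC with all 6 libraries (grey) and without NC replicate 2 (orange, filled where the edgeR adjusted p was under 0.05). Right, HT+EA against HT (blue) and SEA against HT (green), where no point had an adjusted p under 0.05. Camk2b stays near 0 in all 4 sets.

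In the CEA none of the 9 members passed in any of the 6 treatment comparisons, with edgeR or with adjusted DESeq2 p-values, where at most 0.00606% of all genes passed in edgeR. Against NC, 9 log2 fold changes were below 0 in HT+EA, 9 in SEA and 6 in HT. Their medians were -0.29, -0.22 and -0.08, against 0.01, -0.01 and 0.02 over all genes, and the NC libraries are shared. In HT+EA against HT 7 were below 0, in SEA against HT 5 and in HT+EA against SEA 6. At an unadjusted edgeR p under 0.05 the count was 0 in HT against NC, HT+EA against HT, SEA against HT and SEA against NC. It was 1 in HT+EA against SEA (Shank2, -0.36 ± 0.12) and 1 in HT+EA against NC (Camk2b, -0.30 ± 0.12), beside 1.99% and 4.42% of all genes. Camk2b was at 1069, 927 and 1041 CPM in NC, 914, 929.8 and 978 in HT, 757, 809.6 and 868 in HT+EA and 886, 1072 and 754 in SEA, so the 3 HT+EA libraries were under the 3 NC libraries and under the 3 HT libraries, beside 5.37% and 4.02% of all genes that were lower without overlap. In HT+EA against HT its log2 fold change was -0.23 ± 0.16 (edgeR adjusted p = 0.93). The striatal marker sums were 2142 to 3442 CPM in HT+EA, 3584 to 6141 in HT and 3139 to 5455 in NC. Of the 8 striatal genes, 0 had a log2 fold change above 0 in HT+EA against HT or NC. Their medians were -0.62 and -0.49, against -0.02 and 0.01 over all genes. The part of these markers in the Camk2b values was not tested. The spread inside CEA groups was wide for Nsmf and narrow for Camk2b. The SD within CEA groups was 39.7 to 56.6% of the mean for Nsmf, against 12.5 to 25.9% in the PVN, and for Camk2b it was 3.54 to 17.6% in the CEA and 1.40 to 3.97% in the PVN.

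The difference between the nuclei in the effect of hepatectomy was tested as an interaction. All 9 values were below 0, with a median of -0.67 on the log2 scale, and 0 passed in edgeR (lowest adjusted p 0.419), in DESeq2 or at an unadjusted edgeR p under 0.05, beside 0.0% of all genes that passed in edgeR and 12.1% of all genes at that unadjusted threshold. The values included -1.37 ± 0.70 for Shank2 and -0.10 ± 0.13 for Camk2b. For HT+EA against HT the interaction values ran from -0.28 to 0.63, and 0 passed in edgeR, in DESeq2 or at an unadjusted edgeR p under 0.05, beside 0.0% of all genes in edgeR and 4.52% at that unadjusted threshold.

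The levels of the members ran together over the PVN libraries. Over the 12 PVN libraries, 34 of 36 pairs of members had a Pearson correlation above 0, with a median of 0.77, and the 3 Shank genes correlated at 0.96 to 0.97. Camk2b stood apart, with a median of 0.14 with the 8 others. Over the 12 CEA libraries 29 of 36 pairs were above 0, with a median of 0.32. The lowest pairs there were Nsmf with Homer1 (-0.57) and Nsmf with Dlg4 (-0.44), and the highest was Shank1 with Dlgap1 (0.86). Both genes of that highest pair were highest in CEA NC replicate 3 and CEA HT replicate 3. Shank1 was there at 563 and 519 CPM and Dlgap1 at 173 and 168 CPM. The same libraries had the highest sums of cortical and hippocampal glutamatergic markers, whose part was not tested. These correlations are descriptions over libraries of 4 treatment groups that share normalization.

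Nsmf and the sum of the 3 central amygdala markers varied together over the libraries of each nucleus. The sum does not speak for each marker. Its mean was 154 CPM in PVN HT and 122 in PVN HT+EA, while 2 of the 3 genes had a log2 fold change above 0 there. In the CEA Nsmf was at 333, 769.9 and 804 CPM in NC, 292, 610.1 and 1013 in HT, 352, 769 and 487 in HT+EA and 434, 353 and 797 in SEA. The marker sums of the same libraries were 91.3, 551 and 592 in NC, 61.3, 364 and 562 in HT, 136, 526 and 215 in HT+EA and 202, 90.1 and 585 in SEA. The CEA libraries fell into separate clusters of marker sums, 7 libraries at 61.3 to 364 and 5 at 526 to 592, so the relation is given within the 7. Nsmf was at 292 to 610 CPM in the 7 and at 769 to 1013 CPM in the 5, with no overlap. The thalamus marker sums divided the same way, at 44.5 to 123 CPM in the 7 and 213 to 258 CPM in the 5. So did the sums of the cortical and hippocampal glutamatergic markers, at 32.5 to 147 CPM in the 7 and 152 to 423 CPM in the 5. These marker lists thus cannot be told apart here. Within the 7 libraries Pearson's r was 0.98 and Spearman's rho 0.89 (exact permutation test, two-sided, adjusted p = 0.0286 and 0.107 over 18 relations, chosen after the values were seen), and r was 0.95 without the 2 libraries farthest from their median marker sum. Within the 7 the members differed in sign. For Shank1 r was 0.03 and for Dlgap1 0.44, and it was 0.67 and 0.72 without the 2 farthest libraries. For Shank2 it turned from -0.70 to 0.33 without them. It was -0.90 for Homer1, -0.83 for Camk2a and -0.78 for Dlg4, with rho of -0.86, -0.75 and -0.86. None of these 3 passed (exact permutation test, adjusted p of r = 0.0714, 0.0934 and 0.0940 and of rho = 0.107, 0.239 and 0.107), and without the 2 farthest libraries r was -0.77, -0.82 and -0.88.

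In the PVN, whose marker sums were not split in this way, r of Nsmf with the central amygdala markers was 0.97 and rho 0.95 over 12 libraries (permutation test, two-sided, adjusted p = 0.000240 and 0.000360 over 36 relations computed in both nuclei, chosen after the values were seen). Without the 2 farthest libraries r was 0.96. The thalamus sums of the PVN libraries ran from 61.95 to 180.2 CPM, with NC replicate 1 the lowest for both lists, and the relation of the members to them was not tested. All 9 members had r above 0 with these markers in the PVN, with a median of 0.84, beside 47.1% of 10505 genes with a mean of at least 10 CPM, whose median r was -0.063. With the striatal markers 0 of the 9 had r above 0 in the PVN, and the median was -0.47, beside 50.1% of 10502 genes, whose median was 0.00074. Shank3, at r = 0.96 (permutation test, adjusted p = 0.000240), was next to Nsmf, and Camk2b had the lowest r, 0.31 (permutation test, adjusted p = 0.405). These relations pool the 4 treatment groups, so differences between the groups enter them. A single group of 3 libraries is too few for a value, and values with each group centred were not computed.

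Homer1 was spread in another way in the CEA. Its values were 98.6, 46.6 and 80.8 CPM in NC, 86.1, 30.3 and 50.96 in HT, 55.3, 49.6 and 50.6 in HT+EA and 59.04, 80.2 and 35.96 in SEA, and the high libraries of HT and SEA were HT replicate 1 and SEA replicate 2. The striatal marker sums were 5455, 3139 and 3991 in NC, 6141, 3759 and 3584 in HT, 3325, 2142 and 3442 in HT+EA and 3663, 6137 and 2013 in SEA. The 3 libraries with sums of 5455 or more had 80.2 to 98.6 CPM of Homer1 and 1007 to 1135 CPM of Dlg4. The other 9, with sums up to 3991, had 30.3 to 80.8 CPM of Homer1 and 485 to 1019 CPM of Dlg4, so 1 library, CEA NC replicate 3, reached the high range of Homer1. Within the 9 libraries r with the striatal sum was 0.45 for Homer1, 0.80 for Dlg4 and 0.73 for Camk2b, and none passed (exact permutation test, adjusted p = 0.431, 0.0873 and 0.0934 over the same 18 relations). The value for Dlg4 was 0.06 without the 2 farthest libraries, CEA HT+EA replicate 2 and CEA SEA replicate 3. Nsmf was at 292 to 353 CPM in the 3 libraries with high striatal sums and 352 to 1013 CPM in the other 9, where only HT+EA replicate 1 reached down to them.

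**Figure D5:**
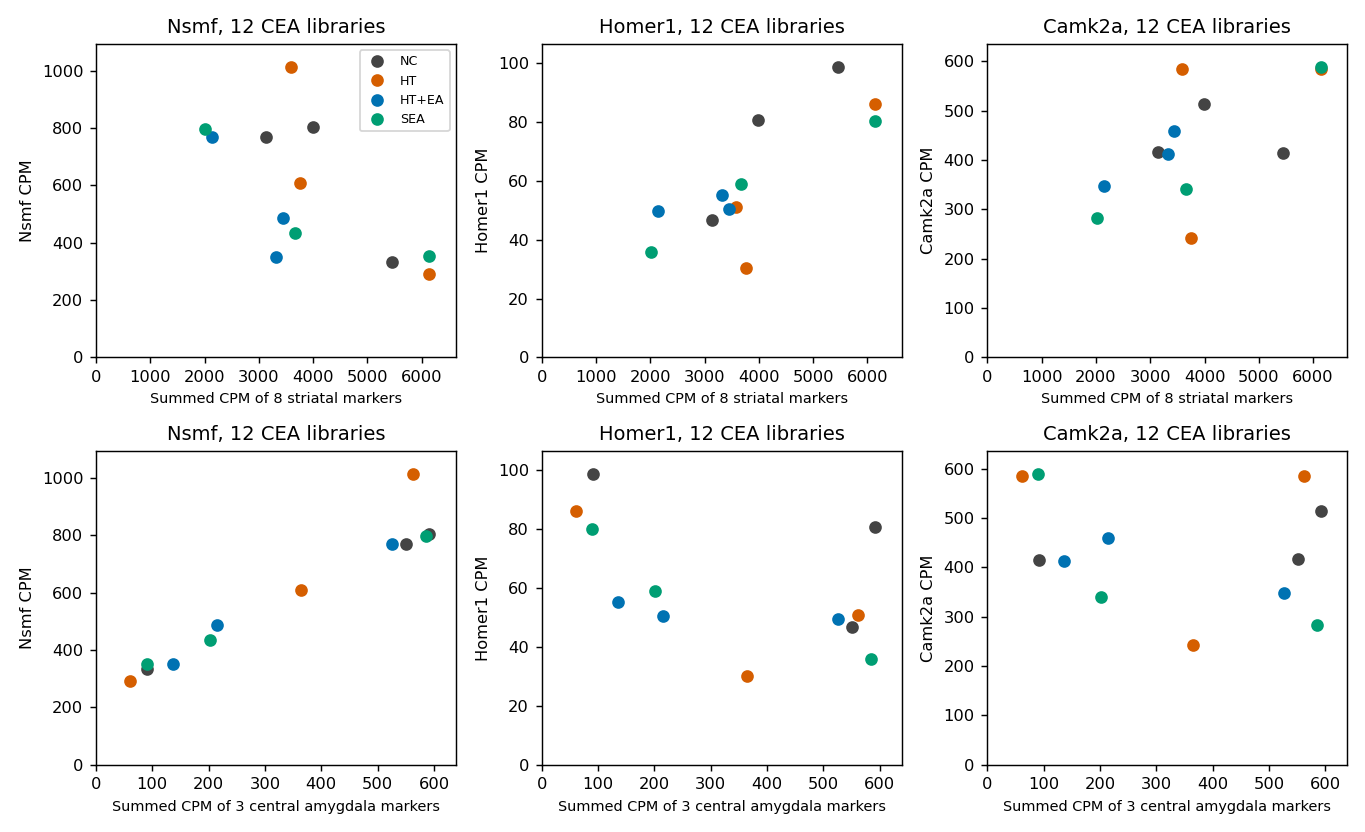
CPM of Nsmf, Homer1 and Camk2a (vertical axes) in the 12 CEA libraries against the summed CPM of 8 striatal markers (top) and of 3 central amygdala markers (bottom), with points colored by treatment group. Nsmf rises with the central amygdala markers from 292 CPM at a sum of 61.3 to 1013 CPM at a sum of 562, and the 3 libraries with the largest striatal sums are among the 4 highest for Homer1.

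Among 10173 other genes with a mean of at least 10 CPM, those whose levels followed the mean of the members most closely, over 24 libraries with each nucleus centred, included Bsn (r = 0.92), Hivep2 (0.91), Rims1 (0.91) and Pip5k1c (0.91). Bsn and Rims1 encode proteins of the presynaptic active zone. Within the PVN r ran from 0.91 to 0.98 for these genes, and within the CEA from 0.84 to 0.93. The likeness is given over libraries that share the treatment groups, the depth scaling and the tissue make-up described above.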

How the data were processed

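The counts were deposited by the authors as 1 table of raw whole-number counts per gene, with no normalization, for 24 libraries. Per the study's methods and processing notes, reads were aligned with HISAT2 and counted per gene with featureCounts, versions not given in the sources used here. The methods name mRatBN7.2, the notes list a human build, and the largest gene end on chromosome 1 is 282724300, so coordinates are given as listed. A second header line, which exchanges CEA HT+EA replicates 2 and 3, was left out, and groups follow the sample titles.

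The 9 members and all gene lists were chosen with earlier results of these data known. Each comparison was fitted on its own libraries with the edgeR 4.0.16 quasi-likelihood test in R 4.3.3, after filtering low counts (filterByExpr) and TMM scaling, with Benjamini-Hochberg adjustment over all genes tested. The region comparison in operated rats had the treatment as a term, and interactions were fitted over both nuclei. Of the other lists, the 3 genes with the smallest p in operated rats were named. Some genes that this rule or the search for similar genes would name are not reported here. DESeq2 1.42.0, another scaling, no filter, the replicate number as a block and leaving out each library were alternatives. The code was tested on simulated counts. Total counts of 13152772 to 18607032 leave a count of 0 compatible with up to 3 counts. No pair of libraries was identical. Nothing states that libraries came from single animals, so p-values measure the spread between these samples.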

Additional observations from a re-analysis of the deposited data

How the results depend on the processing

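The number of members called was recomputed with another scaling, no filter, DESeq2, the replicate block, the 4 groups of a nucleus in 1 fit and each library left out. Outside the comparisons of the nuclei in NC and in operated rats, the reported count was 0 throughout. Apart from leaving out libraries, 80 counts stayed at 0 or within 1.5 times the reported count and 2 moved, both with DESeq2 at an unadjusted p under 0.05, which called 6 members in PVN HT against NC and 5 in PVN HT+EA against HT, where edgeR called 0. For single members, 199 values kept their direction and call or, for length-scaled levels under the other scaling, stayed within 1 SD. A call was gained by 14 values, among them the 6 and 5 just named, and lost by 1, and 2 turned direction. Leaving out 1 library gave 0 to 6 called members in PVN HT against NC, 0 to 5 in PVN HT+EA against NC and 0 to 6 in PVN SEA against NC, the highest each time without PVN NC replicate 2. Shank1 between the nuclei in operated rats turned on the log2 scale from -0.033 to 0.061 without the 2 CEA libraries highest in striatal markers and to 0.090 without the 3 low in central amygdala markers, fits added after the data were seen. With single libraries left out it was -0.15 to 0.041. Camk2b in PVN HT against NC was -0.037 to 0.020, and Homer1 in PVN HT+EA against HT was -0.23 to 0.015. The cause was not tested.

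The replicate block called 9 members in the NC comparison of the nuclei, where same-numbered libraries deviated together, and in CEA HT against NC, the other such comparison (r from 0.18 to 0.29), it called 0. In operated rats the pairs did not deviate together (r from -0.20 to 0.19), and the block called 6 (51.1% of all genes passed), with Dlgap1 at an edgeR adjusted p of 0.0553. In every other comparison the block called 0 members, as without it. With 3 libraries a group, the SD of a member within a CEA group was 1.91% to 56.6% of its mean.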
